A study of Mus musculus with 2 samples.

Results

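The 9 genes described here mark the states that macrophages take up in tissue: Arg1, Nos2, Mrc1, Cd163, Folr2, Trem2, Apoe, Retnla and Chil3. They were chosen by symbol, and all 9 were found among the 19059 genes of the matrix. The data come from pancreatic tumors grown in the pancreas of mice from KPC cells, a widely used mouse model of pancreatic cancer. One sample was made from tumors of mice given the vehicle DMSO and the other from mice given EIPA at 10 mg/kg, an amiloride derivative that blocks macropinocytosis. Each sample pooled 4 flash-frozen tumors, and strain, age and treatment time are not given in the sources used here. RNA was measured per fixed cell with pairs of gene-specific probes and counted as unique molecules (UMIs). The series asks how macropinocytosis bears on fibroblast identity in these tumors. Cell barcodes end in 1 or 2, and no label ties that number to DMSO or EIPA. Values are therefore given by library number, and ratios put library 2 over library 1 with no treatment direction implied.

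Macrophages exposed to interleukin 4 or 13 turn on arginase 1 (Arg1), the resistin-like protein Retnla, the chitinase-like protein Chil3 and the mannose receptor Mrc1, while interferon gamma and bacterial products turn on nitric oxide synthase 2 (Nos2). Arginase 1 and nitric oxide synthase 2 draw on the same substrate, arginine. Cd163, a receptor for haemoglobin bound to haptoglobin, and Folr2, a folate receptor, mark resident macrophages in many tissues. Trem2 is a lipid-sensing receptor and Apoe a lipid carrier, and both mark the lipid-associated macrophages found in tumors. The complement genes C1qa, C1qb and C1qc mark tissue macrophages and were used to select the cells.

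Mrc1 and Trem2 ran apart in tumor and unnamed cells, as described below, so the 250 bases before their starts are shown, from RefSeq on build GRCm38.p6, plus strand, 5′ to 3′. Mrc1 lies at chr2:14229392-14332057 and Trem2 at chr17:48346401-48354147 (GENCODE annotation of GRCm38), both as protein-coding genes on the plus strand, and the windows are chr2:14229164-14229413 and chr17:48346151-48346400. Capitals mark the core of the binding motif of PU.1, a transcription factor of myeloid cells, searched as GAGGAA on both strands; every match here lies on the minus strand.
Mrc1: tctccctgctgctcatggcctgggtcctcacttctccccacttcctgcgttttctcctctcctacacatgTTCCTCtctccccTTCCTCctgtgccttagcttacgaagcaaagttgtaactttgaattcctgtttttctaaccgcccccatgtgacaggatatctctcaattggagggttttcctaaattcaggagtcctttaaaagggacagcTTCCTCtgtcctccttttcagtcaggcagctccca
Trem2: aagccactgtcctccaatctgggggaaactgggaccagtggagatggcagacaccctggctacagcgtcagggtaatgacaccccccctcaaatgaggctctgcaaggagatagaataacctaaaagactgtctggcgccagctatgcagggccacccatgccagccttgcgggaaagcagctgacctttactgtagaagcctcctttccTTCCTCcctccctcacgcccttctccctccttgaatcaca
The Mrc1 window held 3 matches, with first bases at -180, -167 and -35, and the Trem2 window held 1, at -40. The same letters occur in 23.25% of 32851 promoter windows of that length. The GENCODE start of Mrc1 lies upstream of the RefSeq start, so the last bases of its window fall within the GENCODE gene. A match is a description of the letters only. Windows were on hand for 7 of the 9 genes. Arg1 (chr10:24915221-24927484) and Nos2 (chr11:78920787-78960254) had none. In the windows not shown, Apoe had matches at -250 and -132 and Retnla at -196. Those of Cd163, Folr2 and Chil3 held 0 matches.

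Library 1 held 12337 cells and library 2 held 11945, with medians of 11695 and 10756 UMIs per cell. Filters on depth and removal of likely doublets left 11115 and 10783 cells. Of all barcode sequences, 225 occurred in both libraries, and 1 of these was shared among the C1q-positive macrophages. With 1 library per number there is no replicate, so the comparisons carry no test. Intervals are exact 95% Poisson intervals for levels and Clopper-Pearson intervals for shares, and cover counting error only. Where a count is 0, the limit given is instead that of 3 counts, and for cells it limits those with a UMI, not those that express the gene. Levels are CPM, a gene's UMIs scaled to the total UMIs of the class. The number of probes per gene is not used here, so levels are compared within a gene and not between genes.

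A UMI of at least 2 of the 3 C1q genes was found in 2391 cells of library 1 and 2188 of library 2, but most of these were not macrophages by their other genes. Epithelial tumor cells and clusters without a name made up 66.0% and 63.5% of them. Gated cells outside the macrophage cluster and the mixed cluster below were deep, with medians of 22558 and 20998 UMIs, and carried C1qa at 52.8 and 46.4 CPM against 3052 and 2553 CPM in macrophages. The cells described below as C1q-positive macrophages therefore pass the gate and also lie in the cluster named macrophage or monocyte. They numbered 387 in library 1, which is 3.48% of kept cells (3.15 to 3.84), and 488 in library 2, which is 4.53% (4.14 to 4.94). Their median depths were 2273 and 2767.5 UMIs. All 11 macrophage markers reached 20 CPM in both libraries, among them the growth factor receptor Csf1r at 1637 and 1679 CPM.

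Markers of other cells were present beside these. Epithelial markers stood at a median of 22.4% and 22.04% of their level in the pool of tumor and unnamed cells. Their part in the results was not tested, since the subtraction named below changed levels but not the intervals used for a call. The 9 dendritic cell markers summed to 101 and 194 CPM, and 8 and 9 of them were above 0. Of 7 neutrophil markers 6 were above 0 in each library, summing to 310 and 327 CPM, with Ly6g at 0 in both. A second cluster carried macrophage markers too, with 290 and 139 cells, medians of 10014.5 and 8538 UMIs and islet hormone genes (Gcg, Ins2) among its leading genes. It was left unnamed, by a rule set after seeing the data, and is called the mixed deep cluster.

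Arg1, which splits arginine into urea and ornithine, stood at 358 CPM in the C1q-positive macrophages of library 1 (325 to 393) and at 527 CPM in library 2 (494 to 561). It was held by 87 cells (22.5%) and 143 cells (29.3%). The intervals lay apart, and the log2 ratio of 0.56 fell just short of the 1.5-fold that was required for a call. In cells thinned to 1000 UMIs each, 43 of 350 (12.3%) and 70 of 446 (15.7%) had an Arg1 UMI, and the log2 ratio of 0.62 passed. A few cells held much of the RNA: the 3 highest cells carried 21.7% and 22.7% of Arg1 UMIs, with up to 46 and 102 UMIs in 1 cell. Without those cells the levels were 292 and 413 CPM.

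Nos2, which makes nitric oxide from arginine, was rare in both libraries. It stood at 37.5 CPM in library 1 (27.4 to 50.2) and 16.8 CPM in library 2 (11.4 to 23.8), a log2 ratio of -1.12. Only 16 of 387 cells and 9 of 488 held a UMI. The 3 highest cells carried 40% and 80.6% of the UMIs, and without them the levels were 22.9 and 3.28 CPM. Blood endothelial cells, described below, had a UMI more often (19.2% and 13.7%).

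Mrc1, the mannose receptor that takes up glycoproteins, was the member that differed least between the libraries. Its level was 837 CPM in library 1 (786 to 890) and 890 CPM in library 2 (847 to 934), with intervals that overlapped. A UMI was present in 75.7% and 78.7% of cells, and in 53.1% and 54.5% after thinning. The 3 highest cells held 4.79% and 4.68% of Mrc1 UMIs, so the RNA was spread over many cells. T cells, a type in which little Mrc1 is expected, had a UMI in 15.9% and 12.7% of cells at median depths of 1890.5 and 1565 UMIs.

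Cd163 and Folr2, the receptors of resident macrophages, were found in few cells. Cd163 stood at 30.9 CPM in library 1 (21.7 to 42.6) and 16.2 CPM in library 2 (10.9 to 23.2). Those values came from 11 and 7 cells, of which the 3 highest held 56.8% and 80.0% of UMIs. Folr2 stood at 45.1 CPM (33.8 to 58.8) and 37.3 CPM (29.0 to 47.2), in 33 cells (8.53%) and 43 cells (8.81%). For both genes the intervals of the libraries overlapped.

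Trem2, the lipid-sensing receptor, stood at 245 CPM in library 1 (218 to 275) and 294 CPM in library 2 (269 to 319), a log2 ratio of 0.26. A UMI was present in 44.4% and 49.6% of cells, and in 20.6% and 28.3% after thinning. Thinned cells gave a larger ratio, with 240 and 361 CPM and a log2 ratio of 0.59. Apoe, the lipid carrier, was found in 386 of 387 cells and 483 of 488. Its levels were 40826 CPM (40466 to 41190) and 34670 CPM (34402 to 34939), and the log2 ratio was -0.24. The intervals of Apoe lay apart, with library 2 lower, at less than 1.5-fold. That direction turned with the cells taken: the log2 ratio was 0.41 with the mixed deep cluster counted as macrophages, 0.41 at clustering resolution 0.5 and 0.051 with the C1q gate alone.

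Chil3, the chitinase-like protein also called Ym1, rested on single cells. Its level was 35.0 CPM in library 1 (25.3 to 47.4) and 11.4 CPM in library 2 (7.03 to 17.4), a log2 ratio of -1.54. In library 1 only 5 cells held a UMI, and the 3 highest carried 92.9% of them. In library 2 there were 10 such cells. Without the 3 highest cells of each library the order turned, with 2.53 and 4.36 CPM and a log2 ratio of 0.60.

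Retnla, a secreted resistin-like protein, was at 0 UMIs in all 11115 kept cells of library 1, which allows a level of up to 0.0179 CPM and a share of up to 0.027%. Among its 387 C1q-positive macrophages the count of 0 allows up to 2.50 CPM and 0.775% of cells. Library 2 held 29 Retnla UMIs in 17 cells. Of these, 14 UMIs lay in 3 C1q-positive macrophages (7.57 CPM, 4.14 to 12.7) and 12 lay in 12 unnamed cells. Under 20 CPM in both libraries, Retnla was the only member not compared.

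Of the 8 members that reached 20 CPM in a library, 0 were called higher in library 2 and 2 were called lower, Nos2 and Chil3. A call needed at least 20 CPM in 1 library, a 1.5-fold ratio of CPM plus 1 and intervals that did not overlap. Nos2 and Chil3 were under 20 CPM in library 2, so both were compared only through library 1, where they were higher. Of all 8520 genes compared in the same cells, 2.34% were called higher and 1.57% lower. The median log2 ratio was -0.25 over the 8 members and -0.0077 over all genes. In the plot of levels by library, Apoe, Mrc1, Arg1 and Trem2 had narrow intervals and the other members rested on few UMIs. These counts changed with the cells taken: with the mixed deep cluster counted as macrophages, 3 members were called higher (Arg1, Trem2 and Folr2, with log2 ratios of 1.55, 0.91 and 0.67) and 0 lower. That cluster adds 263 and 113 gated cells, and the levels became 103 and 194 CPM for Trem2 and 16750 and 22250 CPM for Apoe. The share of all genes called at that setting is not given, so its count has no background beside it. With the RNA of tumor and unnamed cells subtracted, the counts were again 0 and 2. Only the levels were changed there, and the intervals were still those of the unsubtracted counts. In epithelial tumor and unnamed cells Nos2 stood at no more than 3.70 CPM and Chil3 at no more than 0.198 CPM. The 2 lower calls could therefore hardly change, and the part of that RNA was not tested by them.

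**Figure D1:**
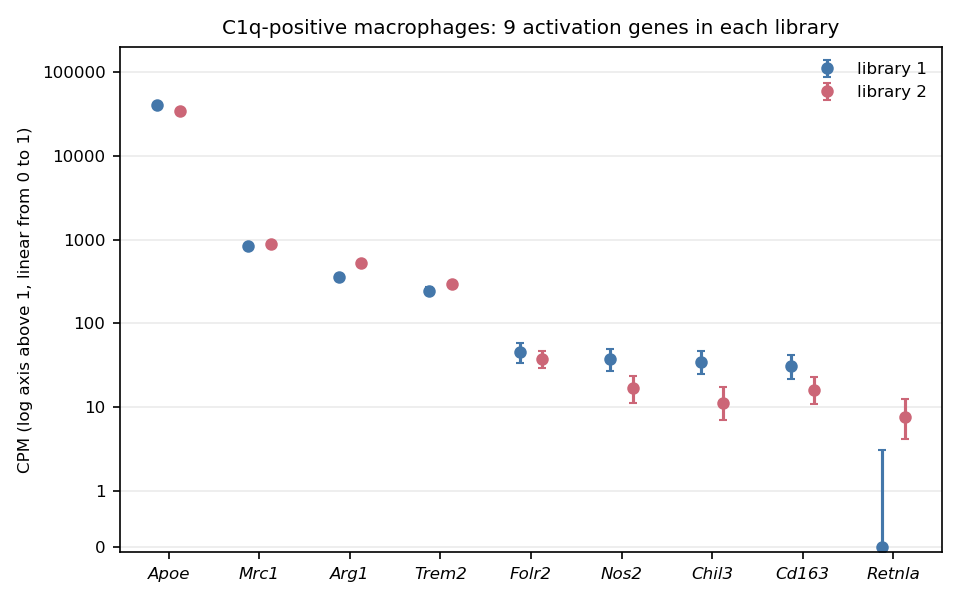
Level of each of the 9 genes in C1q-positive macrophages of library 1 (387 cells) and library 2 (488 cells), in CPM on an axis that is logarithmic above 1. Points are summed UMIs with exact Poisson 95% intervals, and the intervals of Nos2 and Chil3 lie apart with library 2 lower, while Retnla is at 0 in library 1.

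Genes that accompany each state were read from 7 lists in the same cells. Of 15 alternative activation genes compared, 6 were called higher in library 2 and 0 lower, with a median log2 ratio of 0.41. Dendritic cell markers in the same cells summed to 101 and 194 CPM, and their part in this count was not tested. At the ends of that list, the transcription factor Egr2 stood at 13.4 and 41.1 CPM and Irf4 at 9.18 and 24.3 CPM. The lowest were Il1rn, an interleukin 1 antagonist, at 180 and 129 CPM, and Pparg at 25.9 and 18.4 CPM, neither of them called. Of 16 classical activation genes, 2 were called higher and 0 lower (median 0.08). These were the T cell attracting chemokines Cxcl9, at 25.9 and 104 CPM, and Ccl5, at 14.2 and 35.7 CPM. The cytokine Il1b, at 745 and 605 CPM, and the receptor Tlr4, at 60.1 and 49.7 CPM, were lowest and not called.

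Of 18 genes of the lipid-associated state, 4 were called higher and 1 lower (median 0.18). The fatty acid receptor Cd36 stood at 1.67 and 48.7 CPM and the lipoprotein lipase Lpl at 65.1 and 113 CPM. Spp1 (osteopontin) went the other way, at 2961 and 1586 CPM, and the cholesterol exporter Abca1 stood at 481 and 431 CPM. Of 14 resident and perivascular genes, 2 were called higher and 2 lower (median -0.05). The hyaluronan receptor Lyve1 stood at 3.34 and 20.5 CPM and the haem-degrading enzyme Hmox1 at 135 and 213 CPM. Against these, Hpgd stood at 20.0 and 6.49 CPM and the selenium carrier Selenop at 1248 and 813 CPM.

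Arginine use genes beside Arg1 and Nos2 gave 0 calls in either direction among 10 compared (median 0.12). The arginine transporter Slc7a2 stood at 234 and 291 CPM and argininosuccinate synthase Ass1 at 50.9 and 35.7 CPM. Sms, spermine synthase, stood at 21.7 and 30.3 CPM and Gch1, which makes the cofactor precursor of nitric oxide synthases, at 45.9 and 33.5 CPM. Of 10 hypoxia genes 1 was called higher, Pgk1 at 38.4 and 64.3 CPM, and 1 lower, Adm at 21.7 and 4.87 CPM (median -0.12). Bnip3, at 20.03 and 29.2 CPM, and Car9, at 103 and 81.6 CPM, were not called. Of 4 monocyte genes 2 were called higher, Ccr2 at 63.4 and 112 CPM and Hp at 15.02 and 38.4 CPM (median 0.43). The integrin Itgam, at 233 and 197 CPM, and Plac8, at 203 and 209 CPM, were not called. All of these counts stand beside the same shares over all genes given above. Some called genes reached 20 CPM only in the library where they were higher. Among those named, these were Egr2, Irf4, Ccl5, Cd36, Lyve1, Hpgd, Adm and Hp.

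Macrophages were not uniform in these genes. The 1086 cells of the macrophage cluster were split again, with the 9 members and the C1q genes left out of the genes used, into 5 sub-clusters. Sub-cluster 3, with 74 cells of library 1 and 95 of library 2, held 66.3% and 72.3% of all Arg1 UMIs of macrophages, against 22.9% and 30.5% of their total UMIs. Arg1 stood at 1101 and 1188 CPM there, and in the other sub-clusters between 54.3 and 459 CPM. After thinning, 41.9% and 44.9% of its cells had an Arg1 UMI. Nos2 lay almost wholly in the same sub-cluster: 54 of 59 UMIs (91.5%) in library 1 and 32 of 34 (94.1%) in library 2. All 14 Retnla UMIs of macrophages lay there as well.

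The leading genes of sub-cluster 3 included the chemokines Ccl17 and Ccl22, the itaconate-making enzyme Acod1, the amino acid oxidase Il4i1, Car4, Mmp8 and Cd36. Ccl17 stood at 664 and 2181 CPM there. Its 11 macrophage markers summed to 102.2% of their level in the whole class, with Csf1r at 1037 and 1181 CPM. Its dendritic cell markers summed to 7.90% of their level in dendritic cells and its epithelial markers to a median of 32.1% of the tumor pool, and the part of these in the result was not tested.

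The other receptors did not share that pattern. Mrc1 stood at 291 CPM in library 1 and 651 CPM in library 2, against 559 to 1018 CPM in the other sub-clusters. Mrc1 intervals of the libraries lay apart inside sub-cluster 3 (233 to 360 and 590 to 717) and overlapped in each of the other 4. Trem2 stood there at 132 CPM (94.0 to 181) and 237 CPM (201 to 279), also apart. Trem2 intervals were apart in sub-cluster 1 as well (193 to 275 and 296 to 374). Folr2 stood at 23.7 and 39.8 CPM, with 12.5% of its UMIs in library 1 and 34.3% in library 2. Cd163 had a count of 0 among its 74 and 95 cells, which allows shares of up to 4.05% and 3.16%. It was also at 0 in sub-cluster 5, which held 19 and 38 cells. Of Chil3 UMIs, sub-cluster 3 held 50 of 57 in library 1 and 8 of 41 in library 2. They lay in 5 of its 74 cells and 5 of its 95 cells, and 1 cell of library 1 alone held 32 UMIs.

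Nos2 inside sub-cluster 3 stood at 183 CPM in library 1 (137 to 239) and 50.9 CPM in library 2 (34.8 to 71.9). The number of cells with a Nos2 UMI was 20 of 74 and 9 of 95. Arg1 intervals overlapped there (985 to 1228 and 1104 to 1276).

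**Figure D2:**
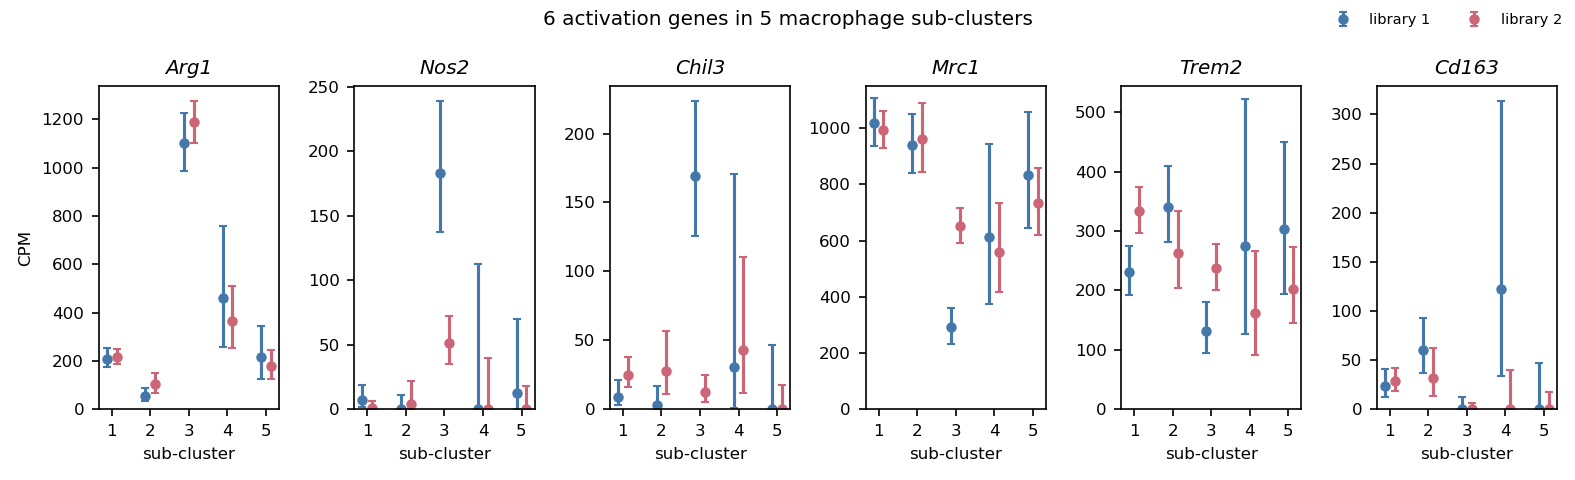
Level of Arg1, Nos2, Chil3, Mrc1, Trem2 and Cd163 in the 5 macrophage sub-clusters of each library, in CPM with exact Poisson 95% intervals and a separate axis from 0 for each gene. Arg1 and Nos2 are highest in sub-cluster 3 in both libraries, where Mrc1 is at 291 and 651 CPM and Cd163 at 0.

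Cells with a UMI of both genes were counted among thinned C1q-positive macrophages, 350 and 446 cells. A Nos2 UMI was found in 6 of 43 cells with Arg1 and 1 of 307 without in library 1, and in 2 of 70 and 1 of 376 in library 2. Cells with both arginine enzymes were thus few, and most cells with Nos2 were also cells with Arg1. The share with Mrc1 had overlapping intervals in both, with a UMI in 51.2% of cells with Arg1 and 53.4% of those without in library 1, and in 52.9% and 54.8% in library 2. Of the 7 and 3 cells with Nos2, 1 and 0 had an Mrc1 UMI. Trem2 was found in 32.6% of cells with Arg1 and 18.9% of those without in library 1, and in 34.3% and 27.1% in library 2. The intervals of those shares overlapped (19.1 to 48.5 and 14.7 to 23.7, then 23.3 to 46.6 and 22.8 to 31.9).

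Cd163 and Folr2, both of resident macrophages, were found together in small numbers. Folr2 had a UMI in 3 of 8 cells with Cd163 and 8 of 342 without in library 1, and in 2 of 5 and 13 of 441 in library 2. Mrc1 was found in 7 of the 8 and 4 of the 5 cells with Cd163. None of the 7 and 3 cells with Nos2 had a Cd163 UMI. Cd163 was found in only 8 of 350 and 5 of 446 cells. These counts are too small to show whether the genes exclude each other. All these are counts of cells with at least 1 UMI at equal depth.

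Macrophages that failed the C1q gate numbered 78 and 133 and were shallow, with medians of 931.5 and 1002 UMIs. They are called C1q-negative but were not free of C1q RNA: 55 and 89 of them held a UMI of 1 C1q gene. C1qb stood at 1419 and 1677 CPM in these cells, against 5379 and 5647 CPM in C1q-positive macrophages. The groups differed in depth, so the comparison was made in cells thinned to 1000 UMIs, which left 36 and 68 C1q-negative cells. Over all UMIs the groups also differed in markers. The 11 macrophage markers summed to 6376 and 7648 CPM in C1q-negative cells, against 16166 and 18203 CPM in C1q-positive cells. Dendritic cell markers summed to 177 and 531 CPM, against 101 and 194 CPM. Fibroblast and epithelial markers were also higher, and neutrophil markers lower, at 155 and 208 against 310 and 327 CPM. The part of these differences in the comparison was not tested. Apoe stood at 36886 CPM in C1q-positive and 7583 CPM in C1q-negative cells of library 1, and at 32563 and 8426 CPM in library 2, with log2 ratios of 2.28 and 1.95. Mrc1 stood at 909 and 500 CPM, and at 1031 and 574 CPM, with log2 ratios of 0.86 and 0.85. In library 1, 2 of 8 members were called higher (background 0.953% of genes) and 2 lower, Arg1 and Nos2 (background 2.02%). In library 2, 3 of 7 were called higher, with Trem2 as the third (background 1.15%), and 0 lower (background 1.83%).

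Arg1 went apart between the libraries in that comparison. At equal depth it stood at 266 CPM in C1q-positive and 722 CPM in C1q-negative cells of library 1 (214 to 326 and 472 to 1058), from 93 and 26 UMIs. In library 2 the values were 408 and 412 CPM (351 to 472 and 274 to 595). Over all UMIs the log2 ratio was -0.92 in library 1 and 0.94 in library 2, and both passed the call. The number of C1q-negative cells and UMIs behind these values is small. The groups also differed in their mix of sub-clusters. Over both libraries, 121 of 169 cells of sub-cluster 3 passed the gate. In sub-cluster 1 it was 372 of 383 and in sub-cluster 4 it was 43 of 105. The part of that mix in the Arg1 values was not tested.

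Trem2 stood at 240 and 250 CPM in library 1 and at 361 and 147 CPM in library 2, in C1q-positive and C1q-negative cells in turn. Nos2 was lower in C1q-positive cells of library 1, at 31.4 and 167 CPM from 11 and 6 UMIs. In library 2 it stood at 16.8 and 14.2 CPM over all UMIs, and at 3 and 0 UMIs after thinning. Chil3 stood at 31.4 and 139 CPM and at 15.7 and 58.8 CPM, with overlapping intervals. Over all UMIs, without thinning, Chil3 was called lower in C1q-positive cells of both libraries. The unthinned counts were 2 higher and 3 lower of 8 in library 1 (background 1.81% and 4.99%), and 4 higher and 1 lower of 6 in library 2 (background 3.32% and 6.69%).

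**Figure D3:**
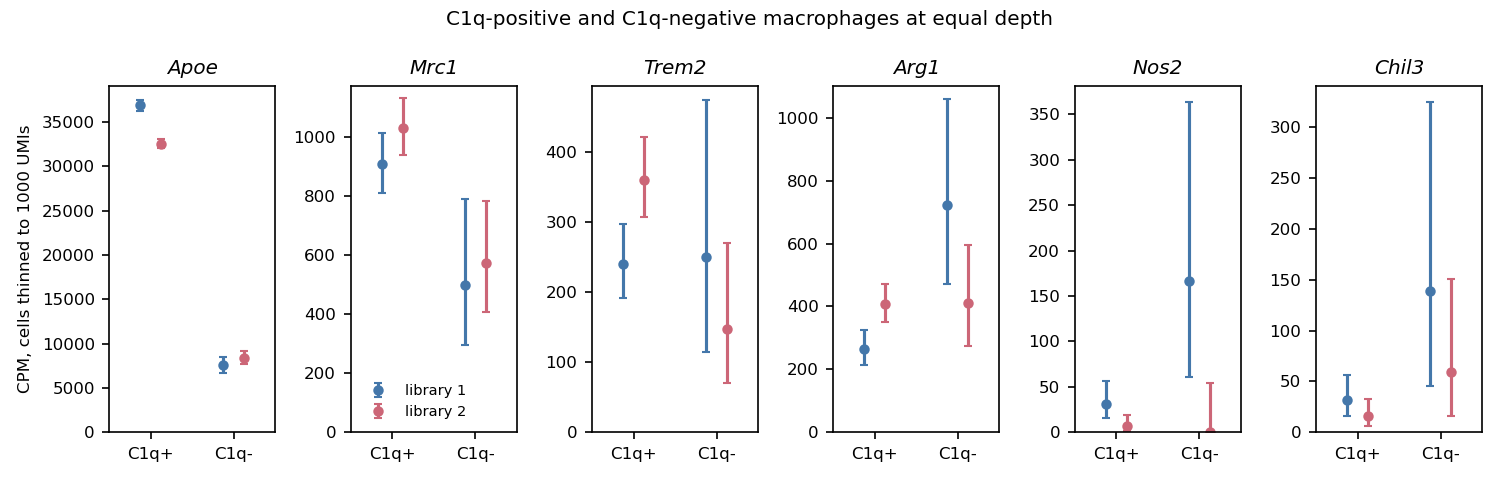
Level of 6 genes in C1q-positive and C1q-negative macrophages after thinning each cell to 1000 UMIs, in CPM with exact Poisson 95% intervals and a separate axis from 0 for each gene. Apoe and Mrc1 are higher in C1q-positive cells of both libraries, and Arg1 is lower in those of library 1 only, at 266 against 722 CPM.

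Outside macrophages, the members fell into those that tracked macrophage RNA and those that did not. As a yardstick, the 11 macrophage markers were read in each class as a median share of their level in C1q-positive macrophages. In T cells that share was 15.03% in library 1 and 10.47% in library 2, and Apoe, at 6344 and 3884 CPM, stood at 1.03 and 1.07 times the level that share gives. In dendritic cells Apoe stood at 6418 and 2815 CPM, 1.08 and 0.922 times that level. In epithelial tumor and unnamed cells Apoe and Trem2 stood at 0.597 to 0.838 times it. The mixed deep cluster was like these, with Trem2 at 53.7 and 62.5 CPM, 0.922 and 0.910 times its marker level.

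Mrc1 did not track them in tumor and unnamed cells. In unnamed cells it stood at 115 CPM in library 1 (113 to 117) and 215 CPM in library 2 (212 to 217), which is 17.4 and 32.8 times the level at their macrophage marker share of 0.789% and 0.735%. Trem2 in the same cells stood at 1.34 and 1.81 CPM. An Mrc1 UMI was present in 58.8% and 64.9% of these cells, and in 10.3% and 15.9% after thinning, at median depths of 12140 and 12492 UMIs. Epithelial tumor cells had Mrc1 at 63.9 and 57.8 CPM, 8.38 and 6.16 times their marker level. Unnamed cells with no C1q UMI at all kept 113 and 196 CPM.

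The ratio of Mrc1 to Trem2 UMIs set tumor and unnamed cells apart from most other classes. It was 3.35 and 3.06 in the macrophage cluster, 5.26 and 4.10 in the mixed deep cluster, and 5.83 and 4.00 in T cells. Dendritic cells, at 3.5 and 4.57, fibroblasts, at 2.17 and 2.43, and neutrophils of library 2, at 5, stood close to macrophages, while blood endothelial cells were at 11.5 and 12.5. Some of these ratios rest on few Trem2 UMIs: 4 in blood endothelial cells of each library, 4 in neutrophils of library 2 and 6 in T cells of library 1. In epithelial tumor cells it was 37.5 and 31.3, and in all unnamed cells 85.6 and 119. In the unnamed cluster 12, led by cell division genes, it was 245 and 377, from 979 and 5281 Mrc1 UMIs against 4 and 14 Trem2 UMIs. Clusters 9 and 13, both with the hormone gene Cck among their leading genes, also stood high: Mrc1 was at 227 and 297 CPM in cluster 9 and at 369 and 347 CPM in cluster 13. The identity of these unnamed clusters was not decided from the markers. With library 2 weighted to the cluster shares of library 1, its Mrc1 level over unnamed cells was 120 CPM, beside 115 CPM in library 1. Cluster 13 held 38 cells of library 1 and 574 of library 2.

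**Figure D4:**
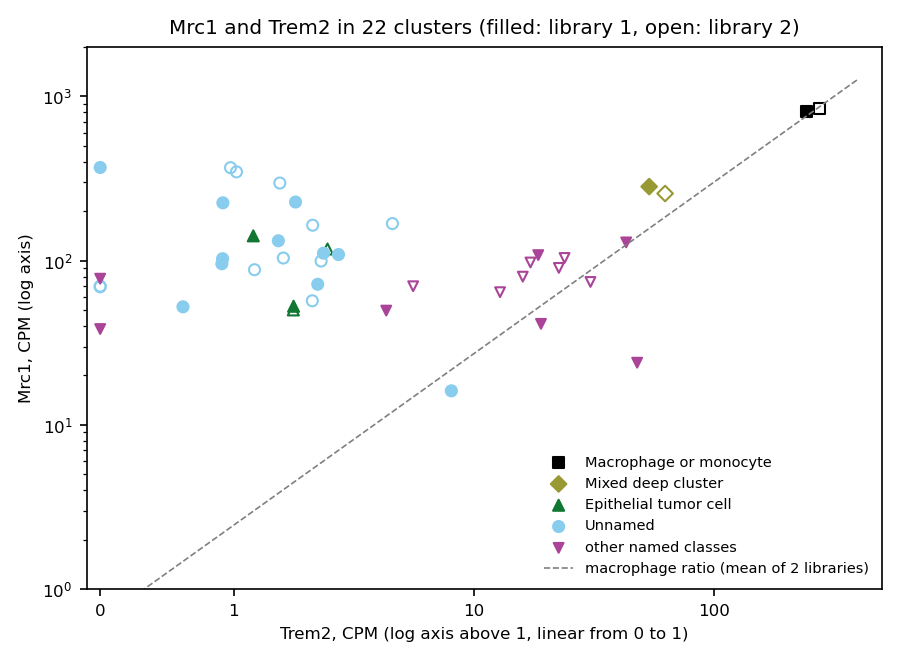
Mrc1 against Trem2 in each of 22 clusters of each library, in CPM on logarithmic axes (Trem2 linear from 0 to 1), with filled symbols for library 1 and open symbols for library 2. The dashed line is the macrophage ratio, and nearly all tumor and unnamed clusters lie far above it, at Trem2 levels under 10 CPM.

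Nos2 also stood outside the macrophages. Blood endothelial cells held it at 43.2 CPM in library 1 (30.8 to 58.8) and 36.3 CPM in library 2 (23.7 to 53.2), in 28 of 146 and 18 of 131 cells. After thinning a UMI was left in 6.52% and 5.08% of them. Those levels were 48.5 and 75.6 times what the macrophage marker share gives, and without the 3 highest cells of each library they were 31.6 and 27.45 CPM. The multiples also depend on Nos2 in C1q-positive macrophages, which rested on 45 and 31 UMIs, with 40% and 80.6% in the 3 highest cells. Without removal of doublets the level in library 1 was 21.1 CPM. Nos3, the endothelial synthase, is not a gene of the matrix.

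Neutrophils held Nos2 at 44.7 and 47.9 CPM, from 7 and 12 UMIs in 5 and 4 cells. Epithelial tumor cells of cluster 8, led by interferon-induced genes such as Ifit3 and Rsad2, held it at 21.7 and 20.4 CPM, in 52 of 696 and 34 of 494 cells. Fibroblasts differed between libraries, at 9.51 CPM (6.27 to 13.8) and 1.33 CPM (0.432 to 3.10), from 27 and 5 UMIs. The unnamed cluster 20 listed Nos2 among its leading genes, at 32.2 and 26.6 CPM, but 1 cell of each library (of 38 and 57) held all 4 and 5 UMIs. In T cells Nos2 was at 1 and 0 UMIs, and the count of 0 in 260 cells allows a share of up to 1.15%.

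Arg1 had its lower values outside macrophages. Fibroblasts stood at 35.9 CPM (29.3 to 43.6) and 18.3 CPM (14.3 to 23.2), where in library 1 the 3 highest cells held 51.0% of UMIs. Neutrophils stood at 57.5 and 39.95 CPM from 9 and 10 UMIs. Unnamed cells stood at 5.36 and 6.36 CPM. Trem2 in fibroblasts stood at 19.0 and 30.6 CPM, 3.02 and 2.46 times their marker level, in 42 of 430 and 82 of 518 cells.

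Folr2, Cd163 and Chil3 had their highest levels among the classes in macrophages. Outside the macrophage and mixed clusters, Folr2 reached no more than 6.39 CPM, from 1 UMI in neutrophils of library 1. Cd163 reached 12.4 CPM in dendritic cells of library 2, where a single cell held all 12 UMIs. Chil3 stood at 166 and 94.8 CPM in C1q-negative macrophages and at 6.39 and 12.0 CPM in neutrophils, from 1 and 3 UMIs. The order of levels for each gene can be read in the plot by class, where neighbours whose bars overlap do not differ beyond counting error.

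**Figure D5:**
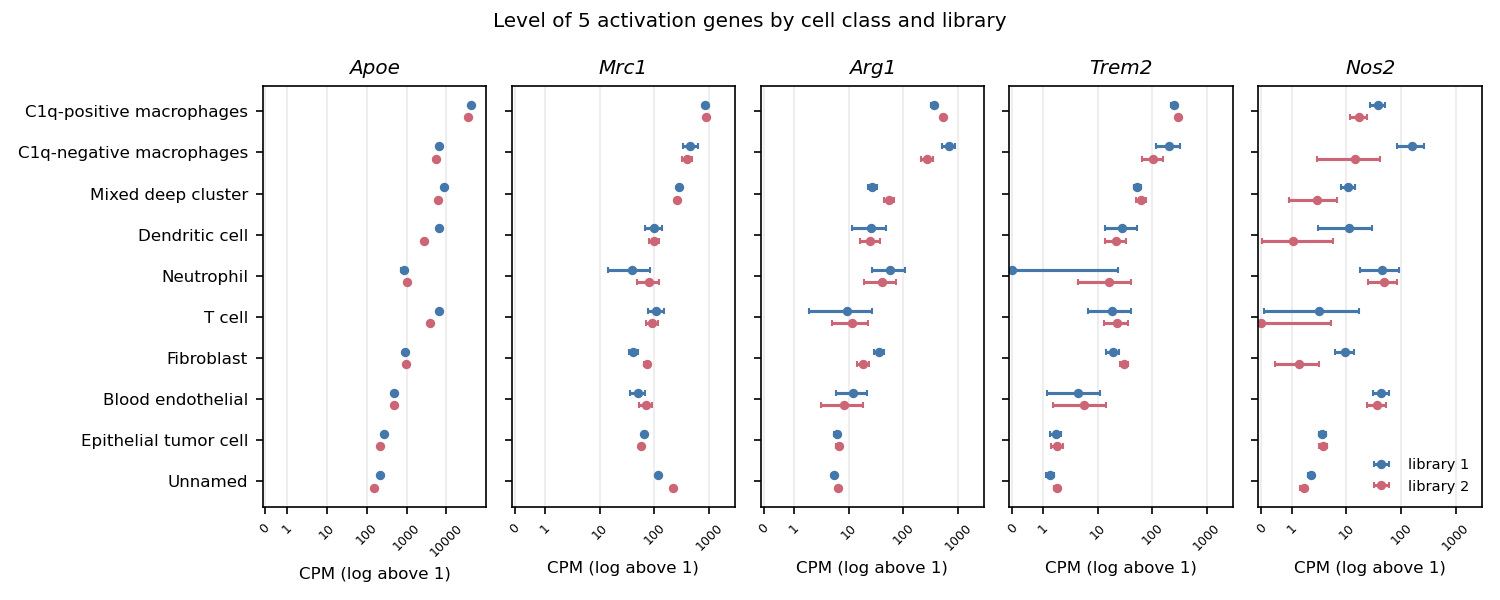
Level of Apoe, Mrc1, Arg1, Trem2 and Nos2 in 10 cell classes of each library, in CPM on axes that are logarithmic above 1, with exact Poisson 95% intervals. Apoe and Trem2 fall from macrophages to tumor cells, while Mrc1 rises again in the unnamed cells, to 115 and 215 CPM, and Nos2 in blood endothelial cells, to 43.2 and 36.3 CPM.

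The genes whose levels ran most like each member were sought over 18 units, the 9 classes in each of the libraries, by Pearson's r of log2 CPM plus 1. The units share libraries and differ in depth, so these are descriptions. Each partner is among the highest of all genes compared, and no background r is given. Nos2, Cd163, Folr2 and Chil3 rest on few UMIs in several units. The highest Chil3 level, 166 CPM, came from 15 UMIs in 4 C1q-negative macrophages of library 1. Cd163 in dendritic cells of library 2 came from 1 cell. Apoe ran with C1qb (r = 0.990), Ly86 and Ctss, all macrophage genes. C1qb is part of the gate that split the macrophage units. Its likeness to Apoe is therefore not independent of how the units were made. Trem2 ran with Lilra5 (0.956), Mfsd7a and Slc37a2, and Arg1 with Gpnmb (0.978), C3ar1 and F7. Mrc1 ran with Pla2g15 (0.915), Blvrb and Abhd12, and Cd163 with the scavenger receptor Marco (0.858), Orai3 and Idua. Folr2 ran with Lrp12 (0.945), Slc16a7 and Arg1 itself, Nos2 with Xylt1 (0.878), Dstyk and Mtus1, and Chil3 with Alas1 (0.912), Nfxl1 and Tsc22d3. Retnla reached 20 CPM in no unit and was not compared.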

How the data were processed

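Single-cell RNA of 2 samples, each 1 library from 4 pooled tumors, was measured with fixed RNA probes, per the labels' protocols. The authors deposited 1 matrix of raw UMI counts per gene and cell, for which the submitters' processing notes name Cell Ranger 8.0.0 and mm10. Aligner settings, probe set version and cell filters are not given in the sources used here. The members, lists and rules below were chosen with earlier results of these data known.

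Filters asked for 200 or more genes, 500 or more UMIs and a mitochondrial share below 20%; 5 and 23 cells failed. Scrublet scores (scanpy 1.11.5) were used to remove 1217 (9.87%) and 1139 (9.55%) likely doublets, at 0.8% per 1000 cells; its automatic thresholds marked 21.3% and 0 cells. Counts were scaled to 10000 per cell and log-transformed. The 3000 variable genes, without the 9 members and the C1q genes, gave 50 components and 15 neighbors for Leiden clustering (leidenalg 0.10.2 with igraph 0.11.9, resolution 1). Clusters were named by the marker list of highest mean fold, given 3 or more of its markers past 20 CPM and 2-fold. A macrophage cluster with a median above 5000 UMIs and epithelial markers at 40% or more of the tumor pool was left unnamed, a rule set after seeing the data. Macrophages were split again on 2000 variable genes, 20 components and resolution 0.5.

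UMIs were summed per class and library. Log2 ratios use CPM plus 1. All 9 members are named; of each list the 2 highest and 2 lowest ratios among genes at 20 CPM, and for each member the 3 genes most like it. Leading genes of clusters and sub-clusters, and the promoters shown, were picked after their values were seen. Not in the matrix are the list genes Clec7a, Nos3 and Ly6c2. The call was tested on counts simulated for 19059 genes: it recovered 100% of 4-fold and 90.0% of 2-fold increases, 96.0% of 4-fold and 70.0% of 2-fold decreases, and called 0.328% of unchanged genes. That simulation has no uneven counts between cells. Python 3.11.15, numpy 2.4.6, scipy 1.17.1, pandas 2.3.3 and edgeR 4.0.16 (for TMM factors only) in R 4.3.3 were used.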

Additional observations from a re-analysis of the deposited data

Results flagged for a closer look

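The log2 ratio of Arg1 in C1q-positive over C1q-negative macrophages was -0.92 in library 1 and 0.94 in library 2, past the call in opposite directions. With 1 library per number the difference between the libraries was not tested. After thinning each cell to 1000 UMIs the values were -1.44 and -0.013, so only library 1 kept the call. The C1q-negative cells that remained numbered 36 and 68, with 26 and 28 Arg1 UMIs. The mix of sub-clusters differed between C1q-positive and C1q-negative cells, and its part was not tested.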

How the results depend on the processing

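No paired analysis was possible because each library stands alone and the columns carry no replicate numbers. The count of members called in C1q-positive macrophages (0 higher, 2 lower in library 2) moved with the setting. Members called higher numbered 1 with no filter on low genes (Retnla), with a gate of 3 C1q genes, with at least 1000 UMIs per cell, with automatic doublet thresholds and with no doublets removed. They numbered 2 with thinned cells and with the gate alone in any cluster, and 3 at resolution 0.5 and with the mixed deep cluster counted as macrophages. Members called lower numbered 1 with a gate of 3 genes, at least 1000 UMIs, automatic thresholds or without the 3 highest cells, and 0 with thinned cells, the gate alone, resolution 0.5 or the mixed cluster counted. The share of all genes called is not given at these settings, so their counts have no background beside them. The cause was not tested.

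C1q-positive macrophages as a percent of kept cells (library 1, library 2) were 3.98 and 5.35 with a gate of 1 gene, 2.72 and 3.41 with 3 genes, 21.51 and 20.29 with the gate alone, and 4.18 and 5.76 with no gate. They were 3.09 and 4.08 without doublet removal, 3.90 and 4.05 with automatic thresholds, 5.77 and 5.52 at resolution 0.5, and 5.85 and 5.57 with the mixed cluster counted. At the last 2 settings and with the gate alone, library 1 had the larger share.

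Over 20 settings the log2 ratio of Arg1 stayed above 0 (0.39 to 1.55) and that of Nos2 below 0 (-2.48 to -0.26). The calls were less stable than these signs. Arg1, not called in the main setting, was called higher in 8 settings, and Nos2 lost its call in 6. Chil3 lost its call in 4 settings where its ratio kept its sign. The ratio of Chil3 turned to 0.82 with a gate of 3 genes and to 0.60 without the 3 highest cells, and that of Folr2 to 0.66 at resolution 0.5, 0.67 with the mixed cluster counted, 0.23 with the gate alone and 0.036 after thinning. The ratio of Apoe was above 0 in 3 settings, at 0.41 with resolution 0.5 and with the mixed cluster counted, and 0.051 with the gate alone. In C1q-positive over C1q-negative macrophages, Arg1 of library 2 turned to -0.013 after thinning, Nos2 of library 2 to -2.51 with a gate of 3 genes, and Chil3 of library 1 to 0.078 without doublet removal. Counts of few UMIs limit Nos2, Chil3, Cd163, Folr2 and Retnla. The planned setting without the macrophage cluster of highest depth was not run, since 1 macrophage cluster remained. The mixed cluster rule and its alternative, with the other added settings, were chosen after seeing the data.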
